A study of Homo sapiens with 6 samples.

Results

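Folate metabolism was followed through 9 genes in BaF3-T315I cells, a murine pro-B cell line that normally depends on interleukin-3 and that was stably transfected with T315I-mutated BCR-ABL. The genes were Slc19a1, Fpgs, Ggh, Shmt1, Mthfd1, Tyms, Shmt2, Mthfd2 and Mthfd1l, 9 of the 22413 genes in the deposited table, and all 9 passed the filter on low values that left 12163 genes. They were picked by name, with their difference between the groups of this series already known, so their values are given as a description. Where a fit over all genes called a member, that call is no independent evidence of its difference. mRNA was sequenced in 3 control samples and in 3 samples exposed to 1.1 µM of I13, a histone deacetylase inhibitor, for 48 h. All 6 samples carried the T315I-mutated BCR-ABL, and parental BaF3 cells are not analysed here. Neither the vehicle and time of the controls nor the number of transfected clones behind the line is given in the labels. Nothing in the labels says that the 3 samples of a group came from separate cultures, so the p-values below measure the spread between these samples, which may be technical.

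Folate carries single carbon units between serine, purines, thymidylate and methionine. It enters cells through carriers such as Slc19a1, is held there by a tail of glutamates that Fpgs adds, and loses that tail to Ggh in the lysosome. In the mitochondrion Shmt2, Mthfd2 and Mthfd1l take the carbon from serine to formate, and in the cytosol Mthfd1, Shmt1 and Tyms use it for purines and thymidylate, the building blocks of DNA in dividing blood cells. Antifolate drugs such as methotrexate use the same carrier and the same glutamate tail.

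Levels are FPKM, a fragment count divided by gene length and by library size. The length, the same in all samples, was recovered as 1965 bases for Ggh, 3802 for Fpgs and 6089 for Tyms. Levels of different genes, set side by side below, depend on these lengths. Whether the lengths match the transcripts present in the cells was not tested. A log2 fold change is the mean of log2(FPKM + 0.1) in the I13 samples minus that in the controls. Library totals recovered from the FPKM values lay between 16762119 and 17722950 fragments. The labels name the organism as human and the processing notes name the build hg38, whereas the gene identifiers are mouse ones, and the values were read as mouse genes. Of the genes listed as B lineage markers, Cd79a, Cd79b and Ptprc were expressed, though Ptprc is not limited to B cells. Pax5, Ebf1, Vpreb1 and Igll1 stayed below 0.5 FPKM in every sample and Rag1 is not analysed here. The 7 listed genes summed to 27.8 to 43.8 FPKM in the controls and 42.2 to 47.8 with I13. Cd79a, Cd79b and Ptprc averaged 21.6, 5.28 and 10.6 FPKM in the controls and 25.2, 4.77 and 14.4 with I13. The summed FPKM of the 3 interleukin 3 receptor genes was between 444 and 885 in the controls and between 909 and 1652 in the I13 samples. The 4 listed T cell markers and the fibroblast marker Col1a1 stayed below 0.5 FPKM in every sample. The 6 listed erythroid markers summed to between 10.7 and 16.1 FPKM in the controls and between 20.9 and 28.6 in the I13 samples, and the 5 listed granulocyte and monocyte markers to between 4.72 and 7.34 and between 5.67 and 12.5, with Elane, Mpo and Csf1r below 0.5 FPKM. The part of these marker differences in the results below was not tested. In bulk RNA, fewer cells of a type and less RNA per cell cannot be told apart.

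Ggh was the member that differed most between the groups, at 2.20 times its control level, and the 3 mitochondrial enzymes Shmt2, Mthfd2 and Mthfd1l lay at 0.604 to 0.667 times theirs. The carrier Slc19a1, the synthetase Fpgs and the cytosolic enzymes Shmt1, Mthfd1 and Tyms had log2 fold changes between -0.17 and 0.10. Over all 9 members 7 were lower and 2 higher in the I13 samples, with a median log2 fold change of -0.11, against -0.005 over all genes tested. The median was -0.14 without Ggh.

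**Figure D1:**
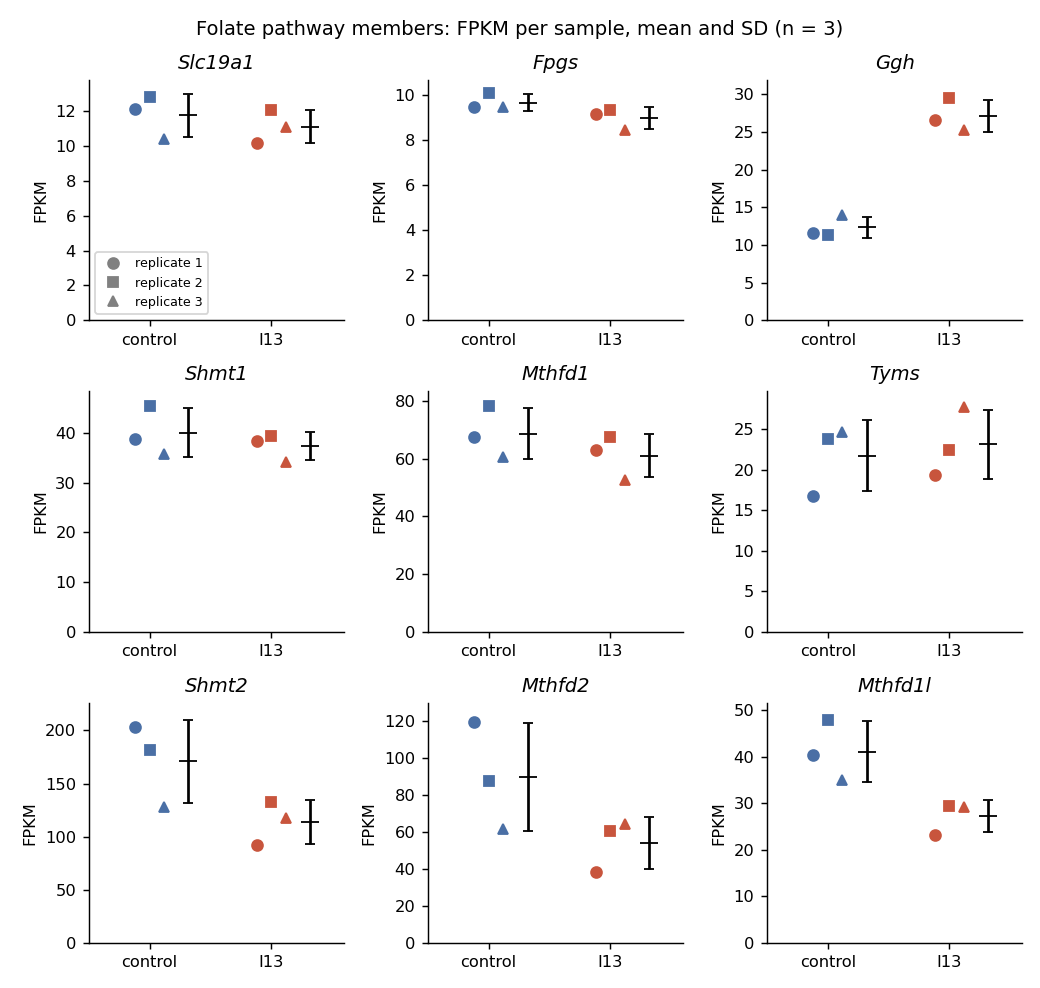
FPKM of the 9 members in each of the 3 control (blue) and 3 I13 (red) samples, on linear axes that start at 0; the marker shape gives the replicate number and the bars the mean and SD of the group. Ggh lay between 25.2 and 29.5 FPKM in the I13 samples, above its 3 controls, and Mthfd1l and Fpgs lay below theirs, while the other 6 members overlapped between the groups.

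Slc19a1 (ENSMUSG00000001436), the reduced folate carrier of the plasma membrane, was at 12.1, 12.8 and 10.4 FPKM in the controls (replicates 1, 2 and 3, in this order throughout) and at 10.2, 12.1 and 11.1 FPKM in the I13 samples. The groups overlapped, and the lowest value was that of I13 replicate 1. The means were 11.8 ± 1.23 (SD, n = 3) and 11.1 ± 0.930 FPKM, a log2 fold change of -0.08 with a standard error (SE) of 0.12. With samples of the same replicate number set against each other, the difference was -0.25, -0.08 and 0.09 on the log2 scale, so that its sign was not the same in all pairs.

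Fpgs (ENSMUSG00000009566), the synthetase that adds glutamates to folate, was at 9.45, 10.1 and 9.46 FPKM in the controls and at 9.16, 9.34 and 8.43 FPKM in the I13 samples. All 3 I13 values were below all 3 controls, by a margin that was small beside that of Ggh. The means were 9.67 ± 0.361 and 8.98 ± 0.482 FPKM, 7.14% apart, with a log2 fold change of -0.11 (SE 0.09). The fewest fragments on the gene in any sample were 561, which gives a counting error of 4.22% of the value from fragment numbers alone.

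Ggh (ENSMUSG00000073987), the lysosomal gamma-glutamyl hydrolase that cuts the glutamate tail, was at 11.6, 11.4 and 14.0 FPKM in the 3 controls. In the 3 I13 samples it was at 26.6, 29.5 and 25.2 FPKM. The groups were well apart, the lowest I13 sample lying above the highest control, and the coefficient of variation was 11.6% in the controls and 7.99% with I13. The means of 12.3 ± 1.44 and 27.1 ± 2.17 FPKM gave a log2 fold change of 1.13 (SE 0.12), and the difference was 1.19, 1.37 and 0.85 in pairs 1, 2 and 3. The values rested on 405, 394 and 484 fragments in the controls and on 922, 971 and 868 in the I13 samples, so that counting error was at most 5.04% of a value. Among all genes tested, Ggh stood at percentile 64.2 of mean level without I13 and at percentile 82.4 with it.

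Within a sample, the FPKM of the hydrolase over that of the synthetase, Ggh/Fpgs, was 1.23, 1.13 and 1.48 in the controls and 2.91, 3.16 and 2.99 in the I13 samples. The ratio was therefore above 1 in all 6 samples and the groups did not overlap. Its mean was 1.28 ± 0.180 in the controls and 3.02 ± 0.128 with I13. A ratio of FPKM compares mRNA levels per length, so whether it lies above 1 depends on the gene lengths used. It says nothing of the activity of either enzyme.

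Of the cytosolic members, Shmt1 (ENSMUSG00000020534), which passes a carbon between serine and folate, was at 38.9, 45.6 and 35.8 FPKM in the controls and 38.4, 39.5 and 34.2 FPKM in the I13 samples. Its groups overlapped, with means of 40.1 ± 4.99 and 37.4 ± 2.80 FPKM and a log2 fold change of -0.10 (SE 0.12). Mthfd1 (ENSMUSG00000021048), the cytosolic enzyme that interconverts folates carrying carbon at different oxidation states, was at 67.5, 78.3 and 60.6 FPKM in the controls and 63.2, 67.5 and 52.8 FPKM in the I13 samples. It was lower in each of the 3 pairs, by 0.10, 0.21 and 0.20 on the log2 scale, although its groups overlapped, and its log2 fold change was -0.17 (SE 0.13). Shmt1 was likewise lower in each pair, by 0.02, 0.21 and 0.07.

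Tyms (ENSMUSG00000025747), thymidylate synthase, was at 16.7, 23.8 and 24.7 FPKM in the controls and 19.3, 22.4 and 27.8 FPKM in the I13 samples. The groups overlapped over most of their range, with the lowest value in control replicate 1 and the highest in I13 replicate 3. The means were 21.7 ± 4.37 and 23.2 ± 4.27 FPKM and the log2 fold change was 0.10 (SE 0.19). It was -0.08 without control replicate 1 and -0.04 without I13 replicate 3.

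Of the mitochondrial members, Shmt2 and Mthfd2 had the highest FPKM of the 9 in the controls. Shmt2 (ENSMUSG00000025403), which opens the mitochondrial branch by taking a carbon from serine, was at 203, 181 and 128 FPKM in the controls and 91.8, 132.5 and 117 FPKM in the I13 samples. The groups overlapped because control replicate 3 lay below I13 replicate 2. The means were 171 ± 38.8 and 114 ± 20.6 FPKM, a log2 fold change of -0.57 (SE 0.20), and the difference was -1.15, -0.45 and -0.12 in pairs 1, 2 and 3.

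Mthfd2 (ENSMUSG00000005667), the mitochondrial dehydrogenase and cyclohydrolase that is common in growing cells and low in most resting adult tissue, was at 119.9, 87.9 and 61.6 FPKM in the controls and 38.2, 60.3 and 64.2 FPKM in the I13 samples. Control replicate 1 was the highest and I13 replicate 1 the lowest, while in pair 3 the I13 sample was slightly above its control. The means were 89.8 ± 29.2 and 54.3 ± 14.0 FPKM, with a log2 fold change of -0.71 (SE 0.28). The difference was -1.65, -0.54 and 0.06 in pairs 1, 2 and 3. It was -0.48 without control replicate 1 and -0.96 without control replicate 3, so that single samples moved it by more than did those of any other member. The coefficient of variation was 32.5% in the controls and 25.9% with I13, against a counting error of at most 2.06%.

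Mthfd1l (ENSMUSG00000040675), the mitochondrial synthetase that releases formate, was at 40.2, 47.9 and 34.9 FPKM in the controls and 23.2, 29.4 and 29.1 FPKM in the I13 samples. All 3 I13 samples were below all 3 controls, and the difference was -0.79, -0.70 and -0.26 in pairs 1, 2 and 3. The means were 41.0 ± 6.55 and 27.2 ± 3.47 FPKM, with a log2 fold change of -0.58 (SE 0.15). Over the 3 mitochondrial members the median log2 fold change was -0.58, and by pair it was -1.15, -0.54 and -0.12. The depth of the difference thus varied from pair to pair, and pair 1 held the largest in each of the 3 genes.

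**Figure D2:**
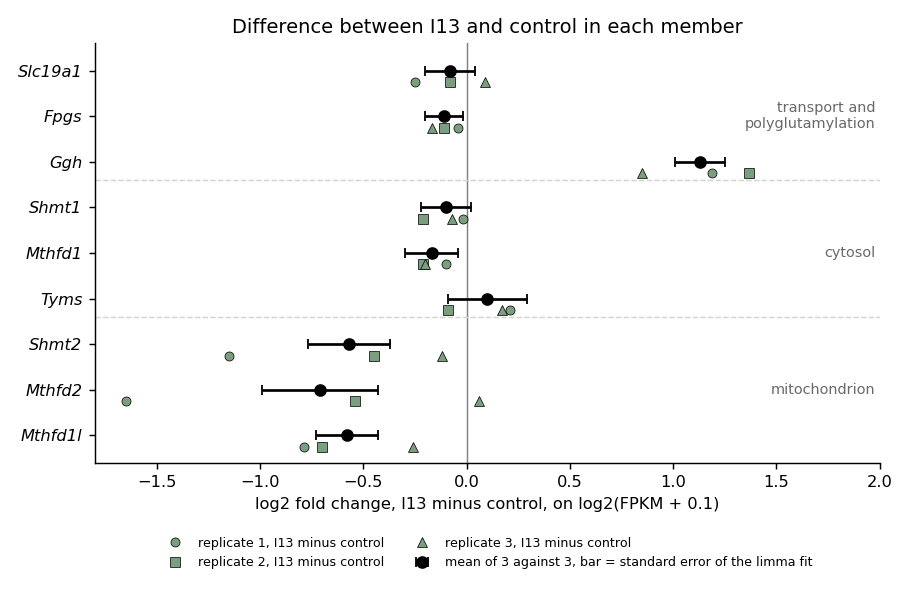
Log2 fold change of each member, I13 minus control on log2(FPKM + 0.1), as the estimate with its standard error (black) and the difference in each pair of same-numbered samples (points). Ggh lay at 1.13 with all 3 pairs above 0, Mthfd1l and Shmt2 had all 3 pairs below 0, and the pairs of Mthfd2 ran from -1.65 to 0.06.

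Counts over the members are set beside those over all genes, and nothing is read from them because the members were picked on this contrast. The groups did not overlap in 3 of the 9 members, and in 25.2% of all genes tested: Ggh lay higher, as did 9.82% of all genes, and Fpgs and Mthfd1l lay lower, as did 15.4%. The log2 fold change reached 0.58 in size in 3 of 9, and in 9.41% of all genes: upward in Ggh and in 6.08% of all genes, and downward in Mthfd2 and Mthfd1l and in 3.34%. In each of the 3 pairs, 5 members were lower, as were 27.3% of all genes, and 1 was higher, as were 24.1%. At an adjusted p below 0.05 and that fold in limma, 1 of 9 was called, Ggh, and 0.0411% of all genes (0.0329% as elevated). That call of Ggh was lost with a pseudocount of 0.01, no filter, median-ratio scaling, rescaling to TPM or eBayes without trend, and when any 1 sample was left out. With the replicate number as a block, again Ggh alone was called, and 1.89% of all genes (1.36% as elevated). When the block was combined with voom, a limma fit to the fragments recovered from the FPKM values, Ggh and Mthfd1l were called, and 4.14% of all genes, and at the adjusted p alone Ggh, Mthfd1l and Shmt2 passed, as did 12.4% of all genes.

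By FPKM, which depends on the gene length used, the order in the controls was Shmt2, Mthfd2, Mthfd1, Mthfd1l, Shmt1, Tyms, Ggh, Slc19a1 and Fpgs. Neighbours whose ranges over the 3 samples overlapped were Mthfd2 and Mthfd1, Mthfd1l and Shmt1, and Ggh and Slc19a1. In the I13 samples the order was Shmt2, Mthfd1, Mthfd2, Shmt1, Mthfd1l, Ggh, Tyms, Slc19a1 and Fpgs. There Mthfd1, Mthfd2 and Shmt1 overlapped in turn, as did Mthfd1l, Ggh and Tyms. Shmt2 headed the order and Fpgs closed it in both groups, and Ggh went from the level of Slc19a1 to that of Mthfd1l and Tyms. Shmt2 stood at percentile 97.9 of all genes tested in the controls and 96.5 with I13, and Fpgs at 57.1 and 55.0.

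The mitochondrial enzymes were also set against their cytosolic counterparts within each sample, which removes any scaling of a library as a whole. Shmt2/Shmt1 was 5.23, 3.97 and 3.57 in the controls and 2.39, 3.36 and 3.43 in the I13 samples. The groups did not overlap, although control replicate 3 and I13 replicate 3 were close, and the means were 4.26 ± 0.867 and 3.06 ± 0.581. Mthfd1l/Mthfd1 was nearly constant in the controls, at 0.596, 0.612 and 0.575, and was 0.368, 0.435 and 0.552 in the I13 samples. Mthfd2/Mthfd1 overlapped between the groups, at 1.78, 1.12 and 1.02 in the controls and 0.604, 0.894 and 1.22 in the I13 samples. In all 3 ratios the lowest sample was I13 replicate 1 and the highest I13 value was that of replicate 3.

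**Figure D3:**
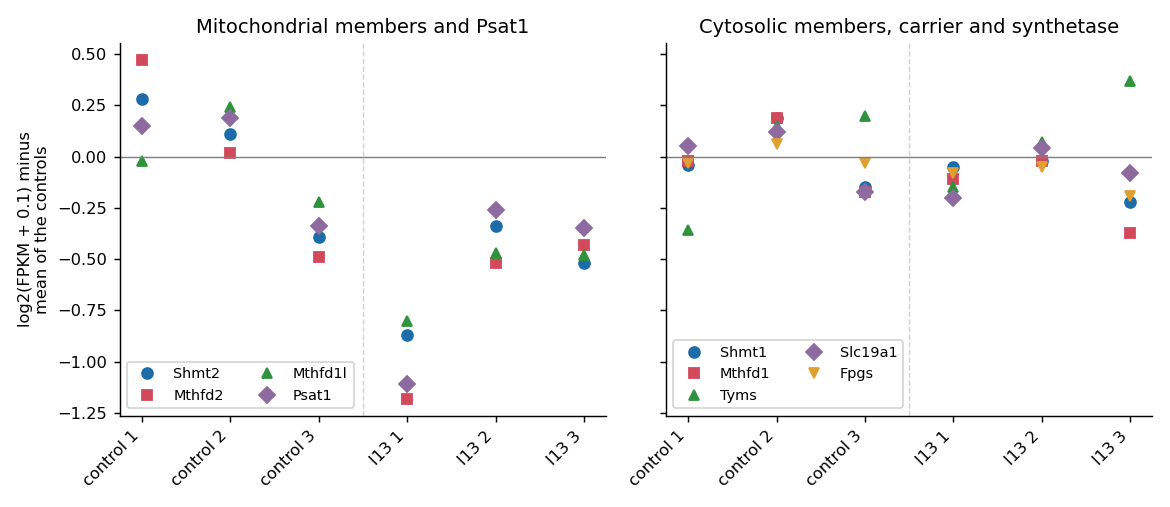
Log2(FPKM + 0.1) of each gene minus its mean over the controls, in each sample, for the mitochondrial members with Psat1 (left) and for the cytosolic members, the carrier and the synthetase (right). On the left the 4 genes lie close together in most samples, from -0.80 to -1.18 in I13 replicate 1 and below 0 in control replicate 3, and on the right all genes stay between -0.37 and 0.37.

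Mthfd2, Shmt2 and Psat1, an enzyme of serine synthesis, followed each other across the samples. Psat1 was at 214, 220 and 152 FPKM in the controls and 89.5, 161 and 151 FPKM in the I13 samples, with a log2 fold change of -0.57 (SE 0.25) that did not pass the test (adjusted p = 0.274 in limma, 0.174 with the replicate block). Like Shmt2 and Mthfd2, it was highest in control replicates 1 and 2 and lowest in I13 replicate 1. Over the 6 samples Pearson's r with Mthfd2 on log2(FPKM + 0.1) was 0.97 for Shmt2, 0.94 for Psat1 and 0.85 for Mthfd1l, and on deviations from the group means it was 0.94, 0.88 and 0.69. For Shmt1 and Mthfd1 it was 0.32 and 0.39 over the samples, and 0.09 and 0.08 on the deviations. For Slc19a1 and the serine synthesis genes Phgdh and Psph it was 0.75, 0.64 and 0.91. On the deviations these had 0.76, 0.77 and 0.81, above Mthfd1l, so such values were not confined to the mitochondrial members and Psat1. For Fpgs, Tyms and Ggh it was 0.37, -0.25 and -0.75 over the samples, and -0.23, -0.15 and -0.5 on the deviations. These are descriptions over 6 libraries that share their scaling. Shmt2/Psat1 stayed at 0.871 ± 0.0681 in the controls and 0.874 ± 0.133 with I13. Phgdh, the first enzyme of serine synthesis, had a log2 fold change of -0.03, and Psat1/Phgdh overlapped between the groups at 0.644 ± 0.115 and 0.446 ± 0.1001.

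The other genes of folate and one-carbon metabolism were counted from lists of 68 genes, of which 59 were in the table and 49 passed the filter. In limma without the block 0 of the 49 had an adjusted p below 0.05, and 0 did with voom. At an unadjusted p below 0.05 there were 4 higher and 4 lower genes, 16.3% of the 49, against 18.6% of all genes tested. With the replicate block 2 genes rose and 2 fell at an adjusted p below 0.05, 8.16% of the 49, against 2.99% of all genes (1.75% rising and 1.24% falling). With the block and voom together 7 passed, 14.3% of the 49, against 12.4% of all genes. The 49 genes were split into 24 higher and 25 lower ones, with a median log2 fold change of -0.01. Their groups did not overlap in 13, or 26.5%, against 25.2% of all genes tested.

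Among the 4 genes that passed with the block were both forms of IMP dehydrogenase, which makes the guanine branch of purine synthesis, in opposite directions. Impdh1 was at 22.9, 20.3 and 20.4 FPKM in the controls and 30.5, 27.6 and 28.9 FPKM in the I13 samples, a log2 fold change of 0.45 (SE 0.09; limma adjusted p = 0.109 without and 0.045 with the block). Impdh2, the more abundant form, was at 147.8, 139 and 138.1 FPKM in the controls and 111.1, 112.6 and 106.8 FPKM in the I13 samples, a log2 fold change of -0.36 (SE 0.08; adjusted p = 0.110 and 0.0478). Neither gene overlapped between the groups. Mtap, which salvages adenine and methionine from methylthioadenosine, was at 307, 260.1 and 305.6 FPKM in the controls and 394.6, 379.1 and 454.9 FPKM in the I13 samples (log2 fold change 0.49, SE 0.11; adjusted p = 0.113 and 0.0384). Dctpp1, which clears modified cytosine nucleotides, went from 135.9 ± 7.36 to 103.3 ± 6.51 FPKM (log2 fold change -0.40, SE 0.09; adjusted p = 0.113 and 0.0447).

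**Figure D4:**
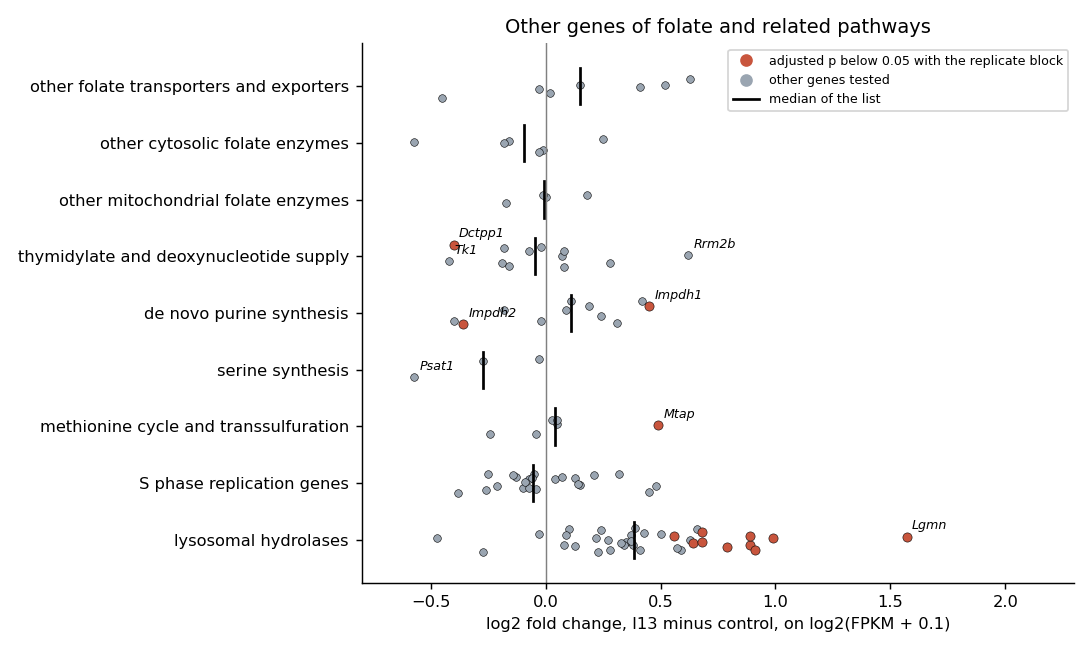
Log2 fold change, I13 minus control on log2(FPKM + 0.1), of each tested gene that is not a member, by list; vertical bars give the median of each list and red points the genes with an adjusted p below 0.05 with the replicate block. The folate lists spread to both sides of 0, with Impdh1 and Mtap to the right and Impdh2 and Dctpp1 to the left. Of the 36 genes listed as lysosomal hydrolases, 33 lie to the right.

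By role, the 7 other folate transporters and exporters had a median log2 fold change of 0.15 with 5 higher, and the examples with the lowest p were Folr1, a folate receptor, at 0.937 ± 0.362 and 1.44 ± 0.197 FPKM and Abcc2, an exporter, at 4.06 ± 0.137 and 3.00 ± 0.737 FPKM (adjusted p = 0.338 and 0.268 in limma). The 6 other cytosolic folate enzymes had a median of -0.10 with 5 lower, among them Atic, which uses formyl folate in purine synthesis, at 63.9 ± 5.93 and 56.4 ± 5.26 FPKM (adjusted p = 0.413 in limma). The 4 other genes listed as mitochondrial folate enzymes, Mtfmt, Amt, Gcsh and Dld, had a median of -0.01. Mtfmt, which formylates the initiator tRNA, was at a log2 fold change of 0.18 and Amt, of the glycine cleavage system, at -0.17 (adjusted p = 0.413 and 0.618 in limma). Gcsh and Dld belong to the same system but do not bind folate. No gene of these 3 lists passed the test with the block, by voom, or by both together, and without the block their unadjusted p was above 0.05 throughout. The difference seen in Shmt2, Mthfd2 and Mthfd1l was thus not matched in the median of those 4 mitochondrial genes, but the difference between the lists was not tested. Aldh1l2 and Gldc were under the filter, so that median does not cover the whole mitochondrial branch.

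The 12 genes of thymidylate and deoxynucleotide supply had a median of -0.04, the 11 of de novo purine synthesis 0.11, the 3 of serine synthesis -0.27 and the 6 of the methionine cycle 0.04. Psph, which ends serine synthesis, was listed at 0.828 ± 0.0864 and 0.673 ± 0.0964 FPKM, close to the filter (adjusted p = 0.621 in limma). Folr2, Abcc3, Abcg2, Mthfs, Mthfsl, Aldh1l2, Gldc, Sardh, Gnmt and Cth were under the filter. The remaining 9 listed genes, Izumo1r, Aldh1l1, Ftcd, Mthfd2l, Dmgdh, Mat1a, Bhmt, Bhmt2 and Cbs, are not analysed here.

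Because Tyms and several of its neighbours are transcribed mostly in S phase, 22 S phase and replication genes were counted beside them. Besides parts of the replication machinery, the list holds Ccne1, Ccne2, Slbp, Hells and Uhrf1. The median log2 fold change of the 22 was -0.06, with 9 higher and 13 lower. By sample the median lay between -0.18 and 0.13 relative to the mean of the controls. At an adjusted p below 0.05 there were 0 in limma without the block, 0 with it and 0 with voom alone. With the block and voom together 1 rose and 2 fell, 13.6% of the 22, against 12.4% of all genes. At an unadjusted p below 0.05 without the block there were 3, or 13.6%, against 18.6% of all genes. The examples with the lowest p were Cdc45, a part of the replicative helicase, at 26.9 ± 0.812 and 20.6 ± 0.224 FPKM (adjusted p = 0.109 without and 0.0522 with the block) and Mcm5, another part of it, at 177 ± 7.72 and 148 ± 14.9 FPKM (adjusted p = 0.221 and 0.0794).

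Ggh works in the lysosome, so 36 tested genes listed as lysosomal hydrolases were counted beside it. The list, called hydrolases below, also holds Npc2 and Psap, which are not hydrolases themselves. Of the 36 genes, 33 were higher and 3 lower in the I13 samples, with a median log2 fold change of 0.38, against -0.005 over all genes. With the replicate block 10 of the 36 rose at an adjusted p below 0.05, or 27.8%, against 1.75% of all genes, and 0 fell. In limma without the block there were 0, against 0.0411% of all genes. At an unadjusted p below 0.05 there were 10 higher and 1 lower, 30.6% of the 36, against 18.6% of all genes. With voom alone 1 rose, where 6 genes passed over the whole table. With the block and voom 18 rose, 50.0%, against 12.4% of all genes in either direction. The list was chosen with these results known, and its count is no independent evidence of its direction.

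Lgmn, an asparaginyl endopeptidase of the lysosome, was at 57.9, 70.8 and 83.8 FPKM in the controls and 172, 253 and 208 FPKM in the I13 samples, with a log2 fold change of 1.57 (SE 0.18; limma adjusted p = 0.086 without and 0.0144 with the block). Its groups were far apart, like those of Ggh. Ctsc, a cathepsin that activates serine proteases of granules, went from 30.5 ± 4.15 to 52.5 ± 2.45 FPKM (adjusted p = 0.086 and 0.0313). The cathepsins Ctsb and Ctsd rose with the block as well (adjusted p = 0.0325 and 0.0384), at log2 fold changes of 0.91 and 0.89, and were higher in each of the 3 pairs, although their groups overlapped. The median of the 36 hydrolases, relative to the controls, was -0.07, -0.30 and 0.35 in control replicates 1, 2 and 3 and 0.11, 0.34 and 0.75 in the I13 samples, so that it overlapped between the groups but was higher with I13 in each of the 3 pairs. Ggh lay at -0.08, -0.11 and 0.19 and at 1.11, 1.26 and 1.03 in the same samples, above the median of the hydrolases in each I13 sample. Control replicate 3 was the highest control in both.

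**Figure D5:**
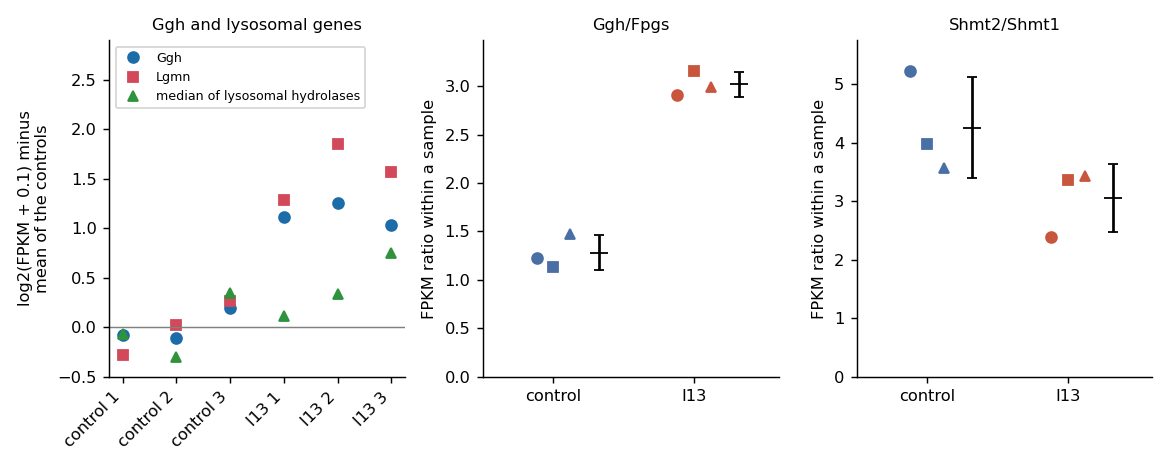
Left, log2(FPKM + 0.1) minus the mean of the controls in each sample for Ggh, Lgmn and the median of the 36 genes listed as lysosomal hydrolases. Middle and right, FPKM ratios within each sample for Ggh/Fpgs and Shmt2/Shmt1 on axes that start at 0, with the mean and SD of each group. Ggh/Fpgs lay between 2.91 and 3.16 in the I13 samples and between 1.13 and 1.48 in the controls, and Shmt2/Shmt1 was lowest in I13 replicate 1 at 2.39.

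The genes most like Ggh were looked for among 10861 other genes with a mean of at least 1 FPKM, by Pearson's r on log2(FPKM + 0.1) over the 6 samples. The first 5 were Mir674, Gm9392, Fam3c, Myo9a and Cep170, with r of 0.998, 0.996, 0.993, 0.991 and 0.991. On deviations from the group means r was 0.96, 0.89, 0.89, 0.80 and 0.81. The 5 genes were picked for the highest r of so many over 6 samples, so these values carry no test. Their log2 fold changes, from 0.38 in Myo9a to 1.80 in Mir674, span a wide range, since r does not depend on the size of a difference. Mir674 rested on 10 fragments over the controls and 35 over the I13 samples, in a library of mRNA that does not measure mature miRNA, and Gm9392 is listed as a processed pseudogene, whose fragments may belong to another copy. Fam3c, a secreted protein, was at 26.7 FPKM on average in the controls and 42.6 FPKM in the I13 samples. Lgmn had an r of 0.98 with Ggh, and 0.71 on the deviations. Among the members r with Ggh was -0.89 for Mthfd1l, -0.79 for Shmt2, -0.75 for Mthfd2 and -0.67 for Fpgs, and between -0.51 and 0.23 for the other 4. On the deviations it was -0.48 for Mthfd1l, -0.44 for Shmt2, -0.50 for Mthfd2 and 0.15 for Fpgs, and between -0.41 and 0.14 for the other 4.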

How the data were processed

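Stranded mRNA libraries of 6 samples were sequenced, and the authors deposited FPKM values of 22413 genes, normalised for gene length and mapped fragments, with no pooling of replicates. The submitters' processing notes name Trimmomatic, HISAT2, Cufflinks, HTSeq and hg38. The version of each tool, the annotation and the strand setting of the counting are not given in the sources used here, so fragments of overlapping genes may be shared, and near-identical copies were not separated. No mouse genome was used here, and no sequence or coordinate is printed. 0 columns were left without a sample.

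Samples were grouped from the labels. Differences were fitted with limma 3.58.1 in R 4.3.3 (lmFit, eBayes with trend) on log2(FPKM + 0.1), in the 12163 genes that averaged 0.5 FPKM or more over the 6 samples, with Benjamini-Hochberg adjustment over all genes tested. A gene was called if its adjusted p was below 0.05 and its log2 fold change was 0.58 or more in size. A fold change on this scale understates that of low genes. Fragments were recovered from the FPKM values as whole numbers within a tolerance of 0.03 for 22406 genes and failed for 7. Counting errors cover counting alone. Scripts were tested on simulated data.

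Same-numbered control and I13 samples deviated together from their group means, with correlations across genes of 0.15, 0.30 and 0.22 against -0.26 to 0.05 for other pairs, so the numbers in the labels were taken to pair the samples. No label says that a number marks a shared day or batch. Deviations from a group mean cancel out within the group, so higher correlations of same-numbered samples go with lower ones elsewhere. The pairing was thus read from the data that the block fit then uses, and calls made only with the block rest on it. The fit with the replicate block keeps 2 residual degrees of freedom.

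The members and gene lists were chosen with earlier results of these data known. Named were all members, from each list up to 4 genes that passed with or without the block or otherwise the 2 with the lowest p, the 5 genes most like Ggh by Pearson's r, and markers. Phgdh was named beside Psat1 after its values were seen. Some genes are not reported here. Alternatives were other pseudocounts, filters, scalings, eBayes without trend, the replicate block and leaving out each sample. Voom on the recovered fragments was chosen after seeing the data. Plots were made in Python 3.11.15 with matplotlib 3.10.9.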

Additional observations from a re-analysis of the deposited data

How the results depend on the processing

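The 5 genes called over the whole table became 2 with a pseudocount of 0.01 or median-ratio scaling and 8 with no filter on low values or with eBayes without trend, and the same 2 and 8 were counted with no limit on the fold. With the replicate block, which pairs the samples by number, there were 230 calls (166 elevated and 64 decreased), and 364 at the adjusted p alone. The block together with voom, a choice made after seeing the data, gave 503 calls and 1508 genes at the adjusted p alone. Leaving out any 1 sample left 0 calls (range 0 to 0), while the unadjusted p was below 0.05 in 1478 to 2482 genes. The other folate and one-carbon genes went from 0 to 4 with the block and to 7 with the block and voom, which added Adss, Rrm2b and Tk1, and stayed at 0 (range 0 to 0) when any 1 sample was left out. The cause of these differences was not tested.

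Among the members, log2 fold changes moved by less than 1 SD between replicates under all 16 alternatives (144 values). Only Tyms changed sign, in the cases given with its values. Leaving out 1 sample gave 1.07 to 1.23 for Ggh, -0.77 to -0.43 for Shmt2, -0.96 to -0.48 for Mthfd2 and -0.69 to -0.47 for Mthfd1l. The settings that ended the call of Ggh are given beside it. Genes near the filter, such as Folr1 and Psph, rest on 21 to 71 fragments per sample.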

Other observations

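The genes most like Mthfd2 across the 6 samples were looked up after its values were seen. The 5 with the highest Pearson's r among 10861 genes were Slc7a1, Zfp444, Cars, Fzd4 and Gpr141. Their r was 0.994, 0.994, 0.992, 0.992 and 0.989, and 0.99 for each on deviations from the group means. Picked as the highest of so many genes over 6 samples, these values carry no test. Slc7a1, the carrier of cationic amino acids, was at 40.2, 34.1 and 28.2 FPKM in the controls and 20.9, 28.5 and 27.6 FPKM in the I13 samples. Cars, which charges the tRNA of cysteine, was at 23.2, 18.9 and 13.4 FPKM in the controls and between 8.54 and 15 FPKM in the I13 samples. In both genes, as in Mthfd2, control replicate 1 was the highest sample and I13 replicate 1 the lowest. Their log2 fold changes were -0.41 and -0.57.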
